A study of Mus musculus with 33 samples.

Results

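The comparison of postnatal day 6 (P6) with the day of birth (P0) asks which transcripts of the MNTB, the medial nucleus in the trapezoid body of the auditory brainstem, differ in level across the first postnatal week. It uses all genes on the arrays of 5 mice titled P6 and 5 mice titled P0, 10 of the 33 arrays of the series, with the litter number in the titles as a block. Both groups are wild-type mice of the FVB strain, as the descriptions give it (the strain tag reads FVN), and the labels give no difference between them other than age, day 0 or day 6. Each array holds the RNA of 1 mouse. The other 23 arrays are of mice aged P1, P2, P3, P4 and P14, and entered the fit to estimate spread and litter effects. The tissue was cut out of live slices with a needle, which enriches for cells of the nucleus and isolates no cell type. In such bulk tissue, fewer cells of a type and less RNA per cell cannot be told apart.

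As background, the principal neurons of this nucleus are glycinergic and relay the timing of sound. Each is driven by the calyx of Held, a very large excitatory terminal that grows around the cell body in the days after birth, while supernumerary inputs are removed. Over the same period oligodendrocytes begin to wrap the axons of the trapezoid body in myelin, astrocytes mature, and neurons turn from outgrowth to fast signalling.

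The values are deposited log2 expression values of 16686 probe sets. Array medians ran from 4.83 to 5.12 over the 33 arrays, and averaged 4.95 at both P0 and P6. Among the arrays compared, limma's quality weights were lowest for the P0 mouse of litter 4 (0.475), the P0 mouse of litter 3 (0.553) and the P6 mouse of litter 4 (0.624). The P0 mouse of litter 3 also had the highest array median of the series (5.12) and the P6 mouse of litter 4 the lowest (4.83). The weight of the P0 mouse of litter 5 (0.637) was next, close to the last of these, so a limit of 3 arrays was a choice. Many counts below are also given without these 3. Arrays have no read depth, and the number of mice limits the precision. The labels do not say whether a litter number marks the same litter at different ages.

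Between P0 and P6 the tissue changed in both directions, with more probe sets lower than higher but more large rises than large falls. In limma, 1258 of 16686 probe sets were higher at P6 (7.54%) and 1626 were lower (9.74%) at an adjusted p under 0.05, and 4587 had an unadjusted p under 0.05. The change was at least 2-fold for 281 of those higher (1.68%) and for 157 of those lower (0.941%). The P0 and P6 mice did not overlap for 1595 probe sets (9.56%), and 1477 of these were also called. The median change over all probe sets was -0.0067. The balance of the directions rested on a few mice. Rises made up 43.6% of calls, 52.8% without the P0 mouse of litter 3, 51.9% without the P6 mouse of litter 4 and 66.6% (1418 higher, 712 lower) without the 3 arrays of lowest weight, an alternative chosen after the data were seen. The share was 37.5% (1053 higher, 1754 lower) without the P0 mouse of litter 5, 39.3% without the P6 mouse of litter 1 and 40.2% without the P0 mouse of litter 2. Without the 3 arrays of lowest weight the count of at least 2-fold rises was 422 and that of falls 112.

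**Figure D1:**
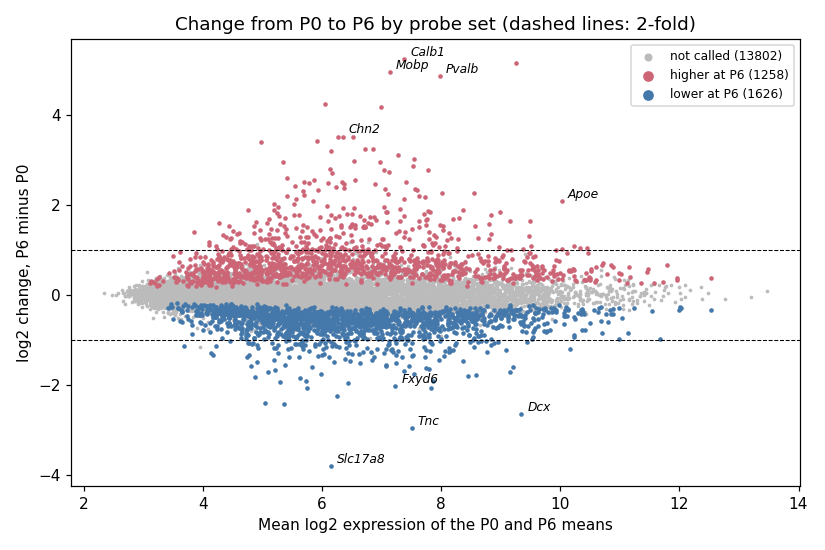
Log2 change from P0 to P6 (vertical axis, P6 minus P0) against the average of the P0 and P6 mean log2 levels (horizontal axis), 1 point per probe set. Red points are the 1258 probe sets higher at P6, blue points the 1626 lower ones and grey points the rest, and the dashed lines mark a 2-fold change. Among labelled genes Calb1 lies highest, at 5.23, and the unlabelled point above Pvalb, at 5.15, is a probe set without a single gene symbol. The largest fall is that of Slc17a8, at -3.79.

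Markers of the dissected tissue were present at both ages. Slc6a5, the glycine transporter of glycinergic neurons, was bright in all mice, at 9.70, 9.75, 10.003, 9.68 and 9.91 at P0 and 11.05, 11.02, 10.80, 10.495 and 10.93 at P6 (litters 1 to 5). No P6 mouse overlapped with a P0 mouse. It rose by 1.05 ± 0.08 (log2 change ± SE, 5 mice against 5; limma adjusted p = 5.49e-10). The transcription factor En1, which marks the lineage of these neurons, fell by 0.52 ± 0.09 (adjusted p = 0.000153), from a mean of 5.30 ± 0.18 (SD, n = 5) to 4.78 ± 0.12, which is under the median of its arrays. Kcnc1, a fast-spiking potassium channel, stood at 6.48 ± 0.32 and 6.71 ± 0.11 and was not called on its brighter probe set (0.24, adjusted p = 0.296), while its other probe set was higher by 0.45 (adjusted p = 0.0378). Of 11 measured genes of principal and glycinergic neurons, 6 rose and 2 fell.

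Markers of some other cells moved with age too, and their part in the results was not tested. For comparison, 1145 of all 14857 genes were called higher (7.71%) and 1488 lower. Lists below with at most 2 calls in a direction, such as the endothelial and meningeal ones, hold too few calls to show a movement of the list. Of 18 myelinating oligodendrocyte genes 16 rose (median change 2.53), of 12 precursor genes 9 rose, of 15 astrocyte genes 11 rose (1 also fell without the P0 mouse of litter 2), and of 13 microglial genes 6 rose. The average level of the myelin list was 4.61 to 5.00 in the P0 mice and 6.98 to 7.67 in the P6 mice, with no overlap, and that of the astrocyte list 6.81 to 7.25 against 7.43 to 7.89. That of the 14 endothelial genes was 5.01 to 5.55 against 5.19 to 5.66, and 2 of them rose. Of 13 immature neuron genes 11 fell, or 7 without the 3 arrays of lowest weight, and of 13 radial glia genes 3 fell, or 5 without the P0 or the P6 mouse of litter 5. Of 6 motor and cholinergic neuron genes 1 rose, the choline transporter Slc5a7 (0.72 ± 0.16; adjusted p = 0.00157, without overlap, on a probe set under the array median at both ages), and of 7 serotonergic genes 1 rose and 1 fell. Chat, which makes acetylcholine, and the serotonin transporter Slc6a4 were not called, with changes of 0.07 for Chat and 0.20 for Slc6a4, whereas Ddc rose by 2.08 ± 0.15 (adjusted p = 6.71e-11). Ddc makes dopamine and serotonin from their precursors. Of 11 pericyte and smooth muscle genes 2 rose and 2 fell, and of 10 meningeal fibroblast genes 1 rose. In the fit of the 10 arrays with the block 0 of these were called. Of 5 ependymal and choroid plexus genes 1 rose. Of 9 cerebellar granule neuron genes 1 fell (1 also rose without the 3 arrays of lowest weight). Of 2 erythroid genes 0 were called (1 rose without the P6 mouse of litter 1).

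The 12 largest rises among named genes with non-overlapping ages held calcium-binding proteins, myelin genes, an astrocyte receptor and genes with roles outside these groups. Calb1, the calcium buffer calbindin, stood at 5.14, 5.00, 5.03, 4.13 and 4.49 in the P0 mice of litters 1 to 5 and at 10.02, 10.32, 9.88, 9.56 and 10.18 in the P6 mice. The P0 mice of litters 4 and 5 were the lowest at P0, and every P6 mouse lay above every P0 mouse. Calb1 rose by 5.23 ± 0.17 (limma adjusted p = 4.24e-18). Pvalb, the calcium buffer parvalbumin, ran from 5.22 to 5.70 at P0 and from 10.15 to 10.64 at P6, and rose by 4.86 ± 0.18, or 29.1-fold (adjusted p = 1.35e-16). Its P0 mean was above the median of its arrays.

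The myelin genes in this group rose from near or under the array median. Mobp, a structural myelin protein, lay between 4.53 and 4.81 in the P0 mice and between 9.40 and 9.83 in the P6 mice (4.95 ± 0.16; adjusted p = 4.24e-18). Mag, an adhesion protein of the myelin surface that faces the axon, was 3.78 to 4.02 at P0 and 8.86, 8.22, 8.03, 7.30 and 8.39 at P6, the P6 mouse of litter 4 being the lowest. Ermn, a cytoskeletal protein of mature oligodendrocytes, was 3.14 to 3.38 at P0, and the P6 mouse of litter 1 (7.47) lay far above the other P6 mice (6.36 to 6.62). All these groups stayed apart at the mouse level. Ugt8a, which makes galactosylceramide, rose by 4.18 ± 0.20, Mbp, which compacts the myelin sheath, by 3.52 ± 0.13, and Cnp, a cytoplasmic myelin enzyme, by 3.23 ± 0.17.

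The other 4 large rises were in genes of different kinds. Chn2, a chimaerin that inactivates the small GTPase Rac, stood at 3.86, 4.49, 4.78, 5.61 and 4.18 at P0 and at 8.51, 8.13, 8.15, 7.63 and 8.09 at P6 (3.52 ± 0.28; adjusted p = 4.17e-10). Smpx, a small cytoskeletal protein known from muscle, stood at 4.56, 4.79, 4.76, 4.02 and 4.43 and at 8.03, 7.55, 8.26, 8.36 and 7.95 (3.51 ± 0.35; adjusted p = 2.26e-08). In litter 4 the P0 mouse was the highest for Chn2 and the lowest for Smpx, and neither gene overlapped between ages. Gpr37l1, a receptor of astrocytes, rose by 3.42 ± 0.13, and Tmem159, a lipid droplet protein, by 3.23 ± 0.23. Both held in every mouse, with P6 ranges of 7.40 to 7.85 and 8.05 to 8.76 against P0 ranges of 3.87 to 4.39 and 4.71 to 5.79.

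**Figure D2:**
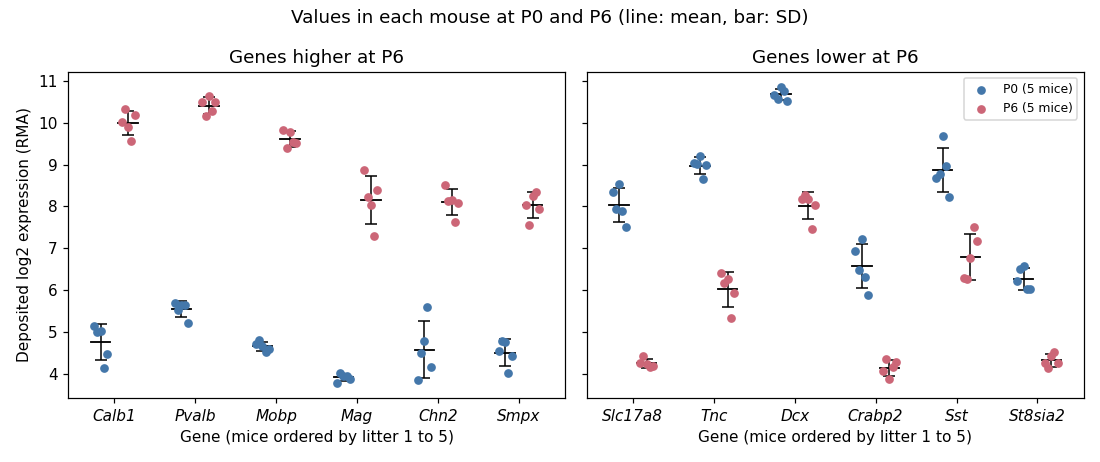
Deposited log2 level (vertical axis) of 6 genes higher and 6 genes lower at P6, with 1 point per mouse, ordered by litter 1 to 5 within each age (P0 blue, P6 red), the line at the mean and the bar at the SD of 5 mice. In all 12 genes the P0 and P6 mice occupy separate ranges, such as 3.86 to 5.61 against 7.63 to 8.51 for Chn2 and 8.23 to 9.68 against 6.26 to 7.52 for Sst. Levels of different genes on this axis are not comparable.

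The 12 largest falls were led by a vesicular transporter, a matrix protein and a microtubule protein. Slc17a8, the vesicular glutamate transporter VGLUT3, stood at 8.33, 7.95, 8.55, 7.89 and 7.51 at P0 and at 4.26, 4.43, 4.23, 4.16 and 4.18 at P6, a mean under the median of the P6 arrays. The P0 mice were spread more widely than the P6 mice, and the ages did not overlap. Slc17a8 fell by 3.79 ± 0.20 (adjusted p = 2.14e-13). Tnc, the matrix glycoprotein tenascin C, ran from 8.65 to 9.19 at P0 and stood at 6.41, 6.17, 6.27, 5.34 and 5.93 at P6, and fell by 2.95 ± 0.18 (adjusted p = 1.99e-12). Dcx, doublecortin of migrating and growing neurons, stood at 10.5 to 10.9 at P0, and the P6 mouse of litter 4 (7.45) lay below the other P6 mice (8.03 to 8.26). Dcx fell by 2.65 ± 0.15 (adjusted p = 4.14e-13).

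The next falls were smaller and of mixed function. Crabp2, which carries retinoic acid in the cell, stood at 6.94, 6.48, 7.22, 6.32 and 5.88 at P0 and between 3.87 and 4.36 at P6, under the array median (-2.42 ± 0.27; adjusted p = 1.57e-07). Dact1, a regulator of the Wnt protein Dishevelled, ran from 7.02 to 7.58 and then from 4.82 to 5.56 (-2.24 ± 0.23; adjusted p = 4.44e-08). Sst, the neuropeptide somatostatin, stood at 8.69, 8.78, 9.68, 8.96 and 8.23 and at 6.28, 6.26, 6.76, 7.52 and 7.18 (-2.07 ± 0.33; adjusted p = 3.97e-05). Its highest P6 mouse, of litter 4, lay below its lowest P0 mouse, of litter 5. Fxyd6, a regulator of the sodium pump, fell by 2.02 ± 0.23, Stk32b, a protein kinase, by 2.07 ± 0.13, and Stc1, a secreted glycoprotein, by 1.95 ± 0.17. St8sia2, which adds polysialic acid to the adhesion molecule NCAM, fell by 1.95 ± 0.12 (adjusted p = 1.77e-12), the laminin receptor subunit Itga6 fell by 1.91 ± 0.14, and the synaptotagmin Syt5 fell by 1.91 ± 0.19.

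The promoters of 2 large risers and 2 large fallers are shown as examples. They differ widely in CpG content, in both directions of change. They are not those of the largest changes, since Calb1 rose more and Slc17a8 fell more than the genes shown. Each runs from 250 bases before to 50 bases after the RefSeq start of the gene on GRCm38.p6, in the gene's direction, with CpG dinucleotides in capitals. The array values were made on mm9, and no array coordinate was used. Mobp lies at chr9:120149492-120149791 on the plus strand, Ugt8a at chr3:125938603-125938902 on the minus strand, Dact1 at chr12:71309634-71309933 on the plus strand and Sst at chr16:23890795-23891094 on the minus strand.
Mobp: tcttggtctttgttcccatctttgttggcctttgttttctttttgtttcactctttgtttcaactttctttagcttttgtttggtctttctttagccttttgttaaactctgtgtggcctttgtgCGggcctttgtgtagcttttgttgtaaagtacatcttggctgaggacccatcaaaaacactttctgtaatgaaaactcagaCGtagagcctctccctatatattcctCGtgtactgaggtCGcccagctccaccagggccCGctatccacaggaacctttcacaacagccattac
Ugt8a: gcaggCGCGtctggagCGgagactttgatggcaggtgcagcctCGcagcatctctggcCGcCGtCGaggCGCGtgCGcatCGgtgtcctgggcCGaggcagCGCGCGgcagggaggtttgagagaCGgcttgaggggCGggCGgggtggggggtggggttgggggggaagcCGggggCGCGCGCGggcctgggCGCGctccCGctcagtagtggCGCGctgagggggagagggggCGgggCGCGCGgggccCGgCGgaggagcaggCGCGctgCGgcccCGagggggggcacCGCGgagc
Dact1: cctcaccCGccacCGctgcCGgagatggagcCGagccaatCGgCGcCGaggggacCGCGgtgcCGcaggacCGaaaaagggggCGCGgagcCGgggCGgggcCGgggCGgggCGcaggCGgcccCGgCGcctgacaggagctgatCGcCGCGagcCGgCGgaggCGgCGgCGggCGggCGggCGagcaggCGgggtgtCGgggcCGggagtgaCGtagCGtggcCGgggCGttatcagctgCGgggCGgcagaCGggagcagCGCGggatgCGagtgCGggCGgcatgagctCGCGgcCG
Sst: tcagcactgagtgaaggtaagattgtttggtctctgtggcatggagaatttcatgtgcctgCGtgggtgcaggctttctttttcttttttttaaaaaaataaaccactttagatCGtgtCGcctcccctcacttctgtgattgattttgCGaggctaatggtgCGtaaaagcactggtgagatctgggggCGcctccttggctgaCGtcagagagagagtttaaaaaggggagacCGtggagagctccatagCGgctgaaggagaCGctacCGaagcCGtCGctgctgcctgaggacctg

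The Mobp promoter holds 5 CpG dinucleotides and that of Ugt8a 40. Both genes were among the 12 largest rises. The Dact1 promoter holds 50 and the Sst promoter 13. Over all 11868 measured genes with a listed promoter, 53.6% were rich in CpG (GC content of at least 50% and an observed over expected CpG ratio of at least 0.6 in the 300 bases). The share was 48.5% of the 200 genes at least 2-fold higher and 58.9% of the 107 at least 2-fold lower. The letters TATAAA on either strand stood in 11.6% of all promoters, in 10.5% of those of risers and in 11.2% of those of fallers. CATTGT, a core that Sox proteins can bind, stood in 9.46% of all, 7.5% of risers and 5.61% of fallers. Neither motif is in the 4 promoters shown. These shares are descriptions, and a match is not a binding site.

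The changes of smallest p in limma were not always the largest. Apart from genes above, the 6 rises with the smallest p in limma were Bcas1 (2.95 ± 0.14), a marker of newly myelinating oligodendrocytes, Itpr2 (2.35 ± 0.11), a calcium release channel, Hapln4 (2.41 ± 0.13), a link protein of perineuronal nets, Nefh (1.86 ± 0.10), the heavy neurofilament, the secreted protease Htra1 (3.19 ± 0.18) and the lipid carrier Apoe (2.09 ± 0.12). Apoe was already bright at P0, at 8.64, 8.68, 9.53, 9.19 and 8.85, and stood at 11.22, 11.14, 11.12, 10.74 and 11.09 at P6. The P6 mouse of litter 4 was the lowest of its age and still lay above all P0 mice. Hapln4 stood at 4.16 to 4.64 at P0 and 6.35 to 7.14 at P6. The falls of smallest p included those of Vim (-1.64 ± 0.10), the intermediate filament of immature glia, the transcription factor Ebf2 (-1.37 ± 0.09), Mturn (-1.15 ± 0.09), known from neural differentiation in Xenopus, Dpysl5 (-1.69 ± 0.13), a growth cone protein, and the synaptic organiser Cbln1 (-1.79 ± 0.13). Mturn, the smallest of these falls, went from 6.68 to 7.01 at P0 to between 5.51 and 5.88 at P6.

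Pathway lists are given as counts of called members, beside 1145 of all 14857 genes higher (7.71%) and 1488 lower and a median change of -0.0063 over all genes. They come from the fit of 33 arrays. In the fit of the 10 arrays alone with the block, where 728 and 731 probe sets were called, 8 chromatin, 11 synaptic adhesion, 7 immature neuron, 4 postsynaptic, 2 kinesin and dynein, 1 Notch and 1 Hedgehog gene fell. Enzymes of sphingolipid and fatty acid synthesis, which supply the lipids of myelin, mostly moved up where they moved. Of 32 measured genes 12 rose and 3 fell. Beside Ugt8a, the elongase Elovl7 rose by 2.77 ± 0.25, Fa2h, which hydroxylates myelin fatty acids, by 2.51 ± 0.20, and the elongase Elovl1 by 1.52 ± 0.28. Fa2h stood at 4.54, 5.39, 5.48, 5.53 and 4.42 at P0 and at 7.85, 7.40, 7.66, 7.47 and 7.53 at P6. The highest P0 mouse lay well below the lowest P6 mouse. Elovl1 overlapped, since the P0 mouse of litter 3 (6.73) reached above the P6 mouse of litter 4 (6.63). The 3 falls numbered 1 without any 1 of the P0 mice of litters 3 and 4 or the P6 mice of litters 4 and 5, and 0 without the 3 arrays of lowest weight. The list's median change was 0.16.

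Calcium sensors and buffers, apart from Calb1 and Pvalb, showed rises among S100 proteins, small calcium-binding proteins found in glia and other cells. Of 23 measured genes of the list 9 rose and 4 fell (2 without the 3 arrays of lowest weight), with a median of 0.14. S100b stood at 5.47, 5.94, 6.26, 6.35 and 6.16 at P0 and at 9.40, 8.29, 9.35, 9.35 and 8.86 at P6 (3.01 ± 0.17; adjusted p = 8.06e-13). S100a13 rose by 2.27 ± 0.20 (adjusted p = 2.84e-09). Also S100a6 (2.17 ± 0.24), S100a1 (1.68 ± 0.26) and S100a4 (1.18 ± 0.27) rose. S100a10, a partner of annexins, went the other way and fell by 1.12 ± 0.18 (adjusted p = 4.93e-05), although its P6 mouse of litter 3 (8.36) lay above its P0 mouse of litter 5 (7.97).

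Ion pumps changed in a mixed way. Of 18 pump and exchanger genes 7 rose and 5 fell (3 without the 3 arrays of lowest weight). The sodium pump subunit Atp1b2 stood at 8.55, 8.39, 8.99, 8.49 and 8.54 at P0 and at 9.51, 9.57, 9.58, 9.31 and 9.38 at P6, and rose by 0.88 ± 0.08 (adjusted p = 5.57e-09). The P0 mouse of litter 3 was well above the other P0 mice and still below every P6 mouse. The pump regulator Fxyd1 rose by 1.10 ± 0.19, while its relative Fxyd6 fell. The calcium pump Atp2b4 fell by 1.67 ± 0.14 (adjusted p = 6.95e-10), to a mean under the array median.

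Among cytoskeletal genes, tubulins and microtubule proteins fell more often than they rose, and the heavy and light neurofilaments rose. Of 24 tubulins and microtubule-associated proteins 12 fell and 4 rose, with a median of -0.21. Beside Dcx, tau (Mapt), which bundles axonal microtubules, stood at 8.55, 8.70, 8.58, 8.79 and 8.12 at P0 and at 7.297, 7.0999, 6.668, 6.298 and 7.282 at P6 (-1.62 ± 0.21; adjusted p = 2.48e-06). The risers were led by Tppp (2.36 ± 0.20), which promotes tubulin polymerisation and is known from oligodendrocytes, and the alpha tubulin Tuba4a (1.56 ± 0.11). Of 11 neurofilament and other intermediate filament genes 4 rose and 2 fell (1 without the 3 arrays of lowest weight). Nefh stood at 6.87, 6.74, 7.22, 6.40 and 7.005 at P0 and at 8.92, 8.74, 8.60, 8.47 and 8.81 at P6, with no overlap, and Nefl rose by 0.66 ± 0.12. Of 24 kinesins and dyneins 7 fell and 1 rose. Kif26b fell by 0.96 ± 0.11 and the dynein light chain Dynll2 rose by 0.49 ± 0.10. The 7 falls numbered 2 without the P0 mouse of litter 3 or the P6 mouse of litter 4, 3 without the P0 mouse of litter 4 and 1 without all of these, when 2 rose.

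Regulators of RNA processing more often fell than rose. Of 28 splicing regulators 10 fell and 3 rose, with a median change of -0.20. Celf3, a neuronal splicing regulator, stood at 6.64, 6.51, 6.98, 6.77 and 6.14 at P0 and at 5.47, 5.07, 5.22, 5.11 and 5.36 at P6 (-1.36 ± 0.15; adjusted p = 1.18e-07). Khdrbs2 fell by 1.11 ± 0.12 and Rbfox2 by 1.04 ± 0.11. Mbnl2, a muscleblind protein that drives mature splice forms, rose by 1.53 ± 0.12 (adjusted p = 4.96e-10), from 6.97 to 7.45 at P0 to 8.51 to 9.07 at P6. Of 12 fetal RNA-binding and high mobility group genes 4 fell and 0 rose. Msi1, a translational repressor of neural progenitors, stood at 7.87, 7.66, 7.89, 7.70 and 7.32 and at 7.09, 6.78, 6.16, 5.32 and 6.61 (-1.30 ± 0.23; adjusted p = 0.00013), the P6 mouse of litter 4 being the lowest. The neuronal RNA-binding protein Elavl4 fell by 0.54 ± 0.09.

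Genes of chromatin and DNA methylation fell more often than they rose. Of 34 measured genes 15 fell and 1 rose, with a median change of -0.30, but 6 fell and 2 rose without the 3 arrays of lowest weight, and 2 rose without the P6 mouse of litter 4 alone. Actl6b, a subunit of the neuronal BAF remodelling complex, stood at 7.98, 7.72, 8.02, 7.81 and 7.30 at P0 and at 7.33, 6.55, 6.63, 6.15 and 6.84 at P6 (-1.06 ± 0.17; adjusted p = 4.21e-05). The P6 mouse of litter 1 overlapped with the P0 mouse of litter 5. The DNA methyltransferase Dnmt3b, which sets new methylation marks, fell by 0.90 ± 0.17 (adjusted p = 0.000256), and its P0 mouse of litter 2 (4.64) lay well below the other P0 mice (5.19 to 5.35). The remodellers Chd3 (-0.84 ± 0.19) and Dpf3 (-0.77 ± 0.16) also fell, in limma, with all 10 mice but not without the 3 arrays of lowest weight. Of 17 imprinted genes 5 fell and 1 rose (median -0.19), led by the adaptor Grb10 (-0.75 ± 0.16), the receptor Igf2r (-0.69 ± 0.14) and Magel2 (-0.60 ± 0.15). Grb10 lost its call without the 3 arrays of lowest weight and in the fit of the 10 arrays with the block. The rise was lost without any 1 of the P0 mice of litters 1, 2 and 5 or the P6 mice of litters 1, 2, 3 and 5, giving 0 rises, and 3 fell without the 3 arrays of lowest weight.

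Synaptic adhesion genes, which hold pre- and postsynaptic membranes together, fell more often than they rose. Of 51 measured genes 17 fell and 7 rose, with a median of -0.205. The neurexin ligand Lrrtm3 stood at 7.45, 7.30, 7.95, 7.15 and 7.25 at P0 and at 9.55, 9.26, 9.43, 9.12 and 9.13 at P6 (1.88 ± 0.13; adjusted p = 5.87e-11). Its relative Lrrtm2 rose by 1.83 ± 0.39 (adjusted p = 0.00128) from widely spread P0 values of 5.00 to 7.37. Cbln1 stood at 9.66, 9.17, 9.84, 9.45 and 9.26 at P0 and between 7.33 and 7.97 at P6. The axonal adhesion molecule L1cam fell by 1.47 ± 0.14 (adjusted p = 1.89e-08). Of 24 postsynaptic scaffold and CaM kinase genes 8 fell and 3 rose. The pseudokinase Camkv fell by 1.45 ± 0.14, the scaffold Dlg4 (PSD-95) by 0.83 ± 0.14 and Psd by 0.73 ± 0.09, while Camk2d rose by 0.83 ± 0.17. The falls numbered 5 without the P0 or the P6 mouse of litter 4 and 4 without the 3 arrays of lowest weight, and the rises numbered 1 without any 1 of the P0 or P6 mice of litter 1, the P0 mouse of litter 2 or the P6 mouse of litter 5.

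Genes of second messenger signalling moved up as often as down. Of 38 genes of cyclic nucleotide and protein kinase C signalling 9 rose and 9 fell. Only 5 rose in the fits of the 10 arrays alone, with or without the block. Protein kinase C theta, Prkcq, stood at 4.29 to 4.50 at P0, under the array median, and at 6.28, 6.33, 6.19, 5.83 and 6.12 at P6 (1.74 ± 0.11; adjusted p = 5e-12). The phosphodiesterases Pde10a (-1.19 ± 0.12) and Pde1c (-1.10 ± 0.16), which break down cyclic nucleotides, and the protein kinase A subunit Prkar2b (-1.06 ± 0.12) fell without overlap.

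Neuropeptides were called about as often as all genes. Their largest change, the fall of Sst (-2.07), was larger than any among the receptors described here. Of 28 neuropeptide and granin genes 2 rose and 2 fell, and 20 had a 95% interval within 0.5 log2 of 0. Penk, which encodes enkephalin, fell by 0.91 ± 0.20 (adjusted p = 0.0017), and Crh, corticotropin-releasing hormone, rose by 1.26 ± 0.28 (adjusted p = 0.00176). Of 31 peptide receptors 3 rose and 5 fell. Tacr1, the receptor of substance P, stood at 6.09, 6.53, 6.70, 6.07 and 5.31 at P0 and at 5.09, 4.57, 4.75, 4.67 and 4.70 at P6 (-1.38 ± 0.16; adjusted p = 4.25e-07). The highest P6 mouse lay just below the lowest P0 mouse. Of 37 amine, acetylcholine, purine and cannabinoid receptor genes 4 rose and 4 fell. The cannabinoid receptor Cnr1 fell by 1.04 ± 0.17, the dopamine receptor Drd2 by 0.87 ± 0.18 and the serotonin receptor Htr1a by 0.85 ± 0.18, each without overlap. The 4 rises numbered 2 without any 1 of the P0 mice of litters 1, 3 and 4 or the P6 mice of litters 2 and 4, and 1 without the 3 arrays of lowest weight. Of 8 metabotropic glutamate and GABA-B genes 2 rose and 1 fell (2 without the P0 mouse of litter 1), with Grm7 at 0.69 ± 0.11 and Grm8 at -0.87 ± 0.22.

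Developmental signalling pathways had small called changes. Of 12 Hedgehog genes 4 fell and 1 rose, the rises numbering 2 without the P0 mouse of litter 3 or the P6 mouse of litter 5. The receptor Ptch1 (-0.65 ± 0.14) and the transcription factor Gli1 (-0.42 ± 0.09), both also targets of the pathway, and the coreceptor Cdon (-0.80 ± 0.13) fell, and the inhibitor Hhip rose by 0.77 ± 0.13. Without the 3 arrays of lowest weight 2 fell and 2 rose, and Ptch1 was not called. Of 23 Notch genes 5 fell and 1 rose (0 without the P0 mouse of litter 1 or the P6 mouse of litter 2), led by the Notch target Hey1 (0.53 ± 0.16) and the ligand-like Dlk2 (-0.46 ± 0.11) and Dlk1 (-0.43 ± 0.08). The call of Hey1 was the lost rise. Without the 3 arrays of lowest weight 3 fell. Of 38 growth factor and receptor genes 5 rose and 6 fell (9 and 2 without the 3 arrays of lowest weight). The binding protein Igfbp5 (-0.86 ± 0.16) and the receptor Igf1r (-0.62 ± 0.16) fell, the latter with overlap and not without those 3 arrays.

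Transcription factor families and clock genes are described next. Of 15 Sox genes 3 rose and 4 fell (2 without the 3 arrays of lowest weight). Sox10 stood at 4.23, 4.14, 4.40, 4.75 and 4.32 at P0 and at 5.68, 5.61, 5.73, 5.23 and 5.66 at P6 (1.21 ± 0.14; adjusted p = 2.22e-07), and Sox8 and Sox6 rose by 1.28 ± 0.14 and 1.29 ± 0.13. These 3 act in the oligodendrocyte lineage, whereas Sox4, of immature neurons, fell by 0.66 ± 0.15, with overlap. Of 33 nuclear receptors 5 rose and 3 fell, among them Nr4a3 (1.02 ± 0.10), the glucocorticoid receptor Nr3c1 (0.98 ± 0.16), Rora (0.84 ± 0.12) and the retinoid receptor Rxrg (-0.73 ± 0.14). Of 11 genes of thyroid hormone handling 2 rose and 2 fell, with the activating deiodinase Dio2 at 0.55 ± 0.08, on a dim probe set, and the receptor Thra at -0.62 ± 0.12. Of 14 clock genes 8 rose and 2 fell, or 5 rose without the P6 mouse of litter 5 and 3 in fits of the 10 arrays of P0 and P6 alone, with or without the block. The output factor Hlf stood at 5.00, 5.66, 5.57, 5.93 and 5.30 at P0 and at 6.77, 6.77, 6.99, 6.51 and 6.60 at P6 (1.24 ± 0.16; adjusted p = 1.16e-06), Bhlhe41 rose by 1.18 ± 0.26 with overlap, a call lost in both fits of the 10 arrays, and the kinase Csnk1e fell by 0.93 ± 0.14. The 2 clock falls numbered 1 without any 1 of the P0 mice of litters 3 and 4 or the P6 mice of litters 1, 2, 3 and 4. The time of day of dissection is not given in the sources used here.

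Lysosomal genes rose in number but by small steps. Of 26 measured genes 11 rose and 0 fell, with a median of 0.32, and 3 had non-overlapping ages. Fitted to the 10 arrays of P0 and P6 alone, with or without the litter block, 3 rose, and 2 fell after median centring or with dim probe sets removed. Ctss, a cathepsin of microglia, stood at 5.48, 5.83, 7.17, 6.00 and 5.85 at P0 and at 8.24, 7.72, 8.14, 8.05 and 7.92 at P6 (1.95 ± 0.25; adjusted p = 1.22e-06). The next largest were Npc2 (0.74 ± 0.25; adjusted p = 0.0387), a cholesterol carrier, and the membrane protein Lamp2 (0.72 ± 0.19; adjusted p = 0.00792), both with overlap. The count was 5 without the P0 mouse of litter 5 or the P6 mouse of litter 1 or 5, 6 without the P0 mouse of litter 1 or the P6 mouse of litter 2 or 3, and 7 without the P0 mouse of litter 2, and 1 gene fell without any 1 of the P0 mice of litters 1 and 2 or the P6 mice of litters 1 and 5. Npc2 lost its call without any 1 of the P0 mice of litters 1 and 5 or the P6 mice of litters 1, 2, 3 and 5, with adjusted p of up to 0.174 in limma. Of 15 vacuolar ATPase genes 3 rose (5 without the P6 mouse of litter 4). Of 18 endoplasmic reticulum chaperone genes 4 rose (1 also fell without the P0 mouse of litter 2 or the P6 mouse of litter 3), with Canx at 0.26 ± 0.07. In both fits of the 10 arrays alone 1 vacuolar ATPase gene and 1 chaperone gene rose, and Canx was not called.

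Proteasome and apoptosis genes held few calls, and gap junction and metal handling genes held more. Of 29 proteasome genes 1 fell, Psmd2 (-0.37 ± 0.12; adjusted p = 0.033), and 24 had an interval within 0.5 log2 of 0. This fall was lost without any 1 of the P0 mice of litters 1, 3 and 4 or the P6 mice of litters 3, 4 and 5, giving 0, and 1 gene rose without the P0 mouse of litter 3. Of 24 apoptosis genes 3 fell (5 without the P0 mouse of litter 4, 1 without the 3 arrays of lowest weight), among them the survival factor Bcl2l1 (-0.55 ± 0.14) and the caspase activator Apaf1 (-0.51 ± 0.12). Of 26 genes of oxidative stress and metal handling 5 rose and 2 fell (1 without the P0 mouse of litter 3 or 4 or the P6 mouse of litter 4). The zinc transporter Slc39a12 stood at 4.30 to 4.75 at P0 and at 6.82, 6.32, 6.59, 6.48 and 6.46 at P6 (2.03 ± 0.16; adjusted p = 2.19e-10). The thioredoxin inhibitor Txnip fell by 1.51 ± 0.27 (adjusted p = 0.000192). Of 10 gap junction genes 3 rose and 1 fell (0 without the 3 arrays of lowest weight). Gjc3, a connexin of oligodendrocytes, stood at 5.41, 4.78, 5.37, 5.15 and 5.67 at P0 and between 7.60 and 8.01 at P6 (2.56 ± 0.19), and Gjb6, a connexin of astrocytes, rose by 1.35 ± 0.24. Of 14 interferon response genes 2 rose (1 without any 1 of the P0 or P6 mice of litter 5 or the P6 mouse of litter 1), led by B2m (1.25 ± 0.19), and 1 fell, Irf9 (-0.50 ± 0.17; adjusted p = 0.0455). The fall was lost, giving 0, without any 1 of the P0 mice of litters 1, 3 and 4 or the P6 mice of litters 1, 2, 3 and 4.

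**Figure D3:**
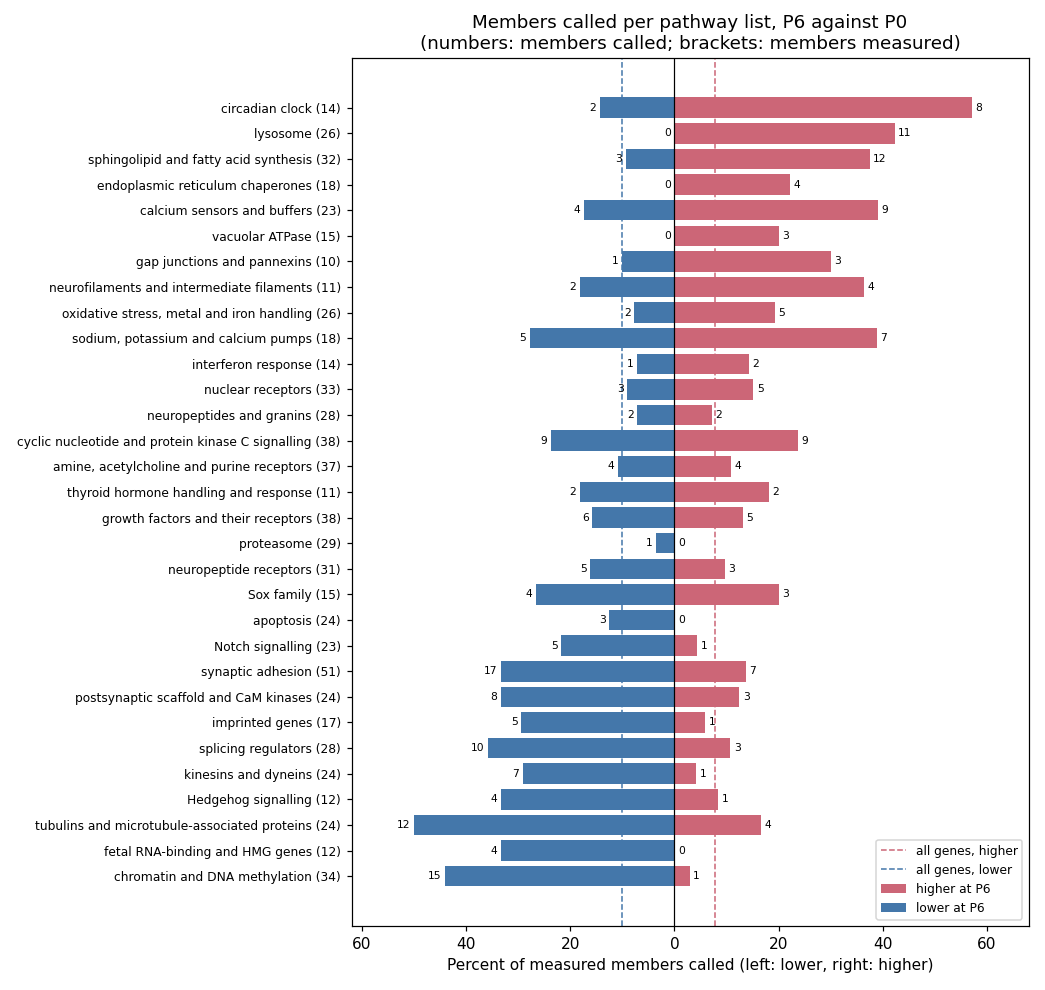
Percent of measured members called higher (red, to the right) or lower (blue, to the left) at P6 in limma, per pathway list reported here. Lists with under 10 measured members are not drawn, which leaves out the metabotropic glutamate and GABA-B list of 8. The number of members called stands beside each bar and the number measured in brackets. The dashed lines mark the shares over all genes, 7.71% of genes higher and 1488 of 14857 lower. Circadian clock (8 of 14 higher) and lysosome (11 of 26) extend farthest on the right, and tubulins (12 of 24 lower) and chromatin (15 of 34) farthest on the left. Counts come from the fit of all 33 arrays. In fits of the 10 arrays alone 3 clock and 3 lysosome genes were higher.

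Pairs of related genes were compared by the change of the log2 difference between their members, which is free of array-wide shifts. Of 34 listed pairs 27 had both members measured. Each difference is the member listed as late minus the member listed as early. It rose in 19 pairs and fell in 3 by a two-sided exact permutation test, adjusted over the 27 pairs. The pairs were chosen with earlier results of these data known, so the counts describe these pairs only. The test used all allocations of the 10 mice, and 0.00794 is the smallest p it allows. In 8 pairs the members were called in opposite directions in limma, or in 5 without the 3 arrays of lowest weight, 5 in the fit of the 10 arrays with the block and 6 in that without it. The tenascins differed most, with Tnr higher by 2.70 ± 0.20 and Tnc lower by 2.95 ± 0.18, a change of 5.65 in their difference (exact p = 0.00794, adjusted 0.0107). Tnr stood at 4.58, 4.51, 5.06, 5.34 and 4.63 at P0 and at 8.20, 7.62, 7.21, 6.96 and 7.62 at P6.

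Ion channel pairs were among those with opposite calls. The glycine receptor subunit Glra1 stood at 4.25, 4.36, 4.71, 3.85 and 3.99 at P0 and at 6.56, 5.58, 5.51, 4.95 and 5.74 at P6 (1.43 ± 0.27). Glra2 stood at 4.79, 5.29, 5.56, 5.19 and 5.60 and then at 3.97, 4.17, 4.21, 4.34 and 4.45 (-1.06 ± 0.24). Both moves were without overlap, and the difference changed by 2.49 (exact p = 0.00794, adjusted 0.0107). The sodium channel Scn1a rose by 1.63 ± 0.15 and Scn3a fell by 0.80 ± 0.22, a call lost without the P0 mouse of litter 4 (adjusted p = 0.0661). The beta subunits Scn2b (1.04 ± 0.16) and Scn3b (-0.74 ± 0.15) moved apart in the same way. The other opposite pairs were Tubb4a (0.66) with Tubb2b (-0.99), Nefh (1.86) with Ina (-0.34), Gfap (0.68) with Vim (-1.64) and Sox10 (1.21) with Sox11 (-0.55). Without the 3 arrays of lowest weight Scn3a, Tubb2b and Ina were not called. In both fits of the 10 arrays alone Ina and Gfap were not called, nor was Sox11 in that with the block.

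In further pairs 1 member moved and the other was not called. The NMDA receptor subunit Grin2b fell by 1.39 ± 0.14, while Grin2a was at -0.14 ± 0.20 (limma adjusted p = 0.743). The difference of Grin2a minus Grin2b rose by 1.25. Syt2, a fast calcium sensor of vesicle release, rose by 1.38 ± 0.16 beside Syt1 at -0.21 ± 0.12. Dnmt3b fell beside Dnmt3a, at 0.08 ± 0.10. For these 3 pairs the difference changed with an exact p of 0.00794 (adjusted 0.0107). The chloride importer Slc12a2 stood at 7.37, 7.05, 7.67, 6.85 and 7.34 at P0 and at 8.49, 8.77, 8.39, 7.89 and 8.55 at P6, and rose by 1.16 ± 0.14. The exporter Slc12a5 was at -0.02 ± 0.14. This pair was 1 of the 3 whose difference fell (Slc12a5 minus Slc12a2, -1.18, exact p = 0.00794, adjusted 0.0107). The other falls were those of Elavl4 against Elavl2 (-0.58) and of Actl6b against Actl6a (-0.57), the last lost without the P0 mouse of litter 1 or 2 (adjusted p = 0.0584 for each). No change was called for Ptbp2 with Ptbp1 (-0.32), Ezh1 with Ezh2 (-0.15), Kcnc1 with Kcnc4 (0.26), Homer3 with Homer2 (-0.32, but called without the P6 mouse of litter 3, at -0.46) or Igf1 with Igf2 (0.17).

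**Figure D4:**
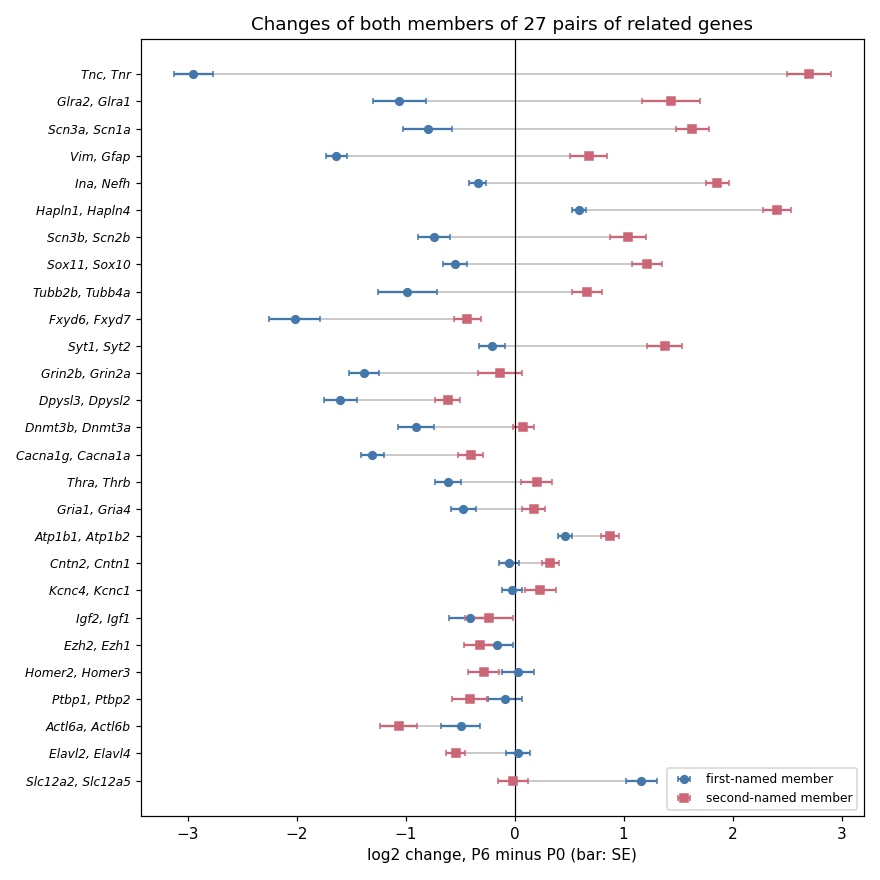
Log2 change from P0 to P6 (horizontal axis, bars ± SE, 5 mice against 5) of both members of the 27 measured pairs. The member listed as early, named first on the axis, is a blue circle and the one listed as late a red square. Pairs are sorted by the change of late minus early. At the top Tnc lies at -2.95 and Tnr at 2.70, and at the bottom Slc12a2 lies at 1.16 and Slc12a5 at -0.02.

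The days between P0 and P6 were looked at in the 19 mice aged P1 to P4, none of which is in the comparison. They share its normalization and litter numbers, and they entered the fit that estimated its spread and litter effects. The calls of the slope and those of P6 against P0 are therefore not independent. A slope per day with litter as a block was called for 379 rising (2.27%) and 540 falling (3.24%) of 16686 probe sets in limma. Of the rising ones 333 were also higher at P6 than at P0, which is 87.9% of the rising and 26.5% of the higher ones. Of the falling ones 373 were also lower at P6, which is 69.1% of the falling and 22.9% of the lower ones. A total of 1 probe set was higher at P6 and falling over P1 to P4, and 0 were lower and rising. Of the 281 probe sets at least 2-fold higher 276 had a positive slope and 179 were called (63.7%), and of the 157 at least 2-fold lower 155 had a negative slope and 112 were called (71.3%). The falling count depended on which mice were used and on the block. It was 227 with no litter term, 320, 289 and 314 without the P1 mice of litters 2, 3 and 5, 300 and 351 without the P4 mice of litters 1 and 2, and 1000 without the P3 mouse of litter 4. The steepest slopes by p included those of Sirt2, a deacetylase of oligodendrocytes (0.39 per day), Hapln4 (0.64), Tnc (-0.85) and Slc17a8 (-0.90).

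Large changes were spread over the week. Among the 281 probe sets at least 2-fold higher, the median share of the P0 to P6 change reached was 25.1% at P1, 40.5% at P2, 60.6% at P3 and 75.7% at P4. Among the 157 at least 2-fold lower it was 20.9%, 39.5%, 58.9% and 67.9%. At P14 the medians were 142% and 133%. These shares use the P0 and P6 means that chose the probe sets, so they describe a course and test nothing. By P2, 18 of the 281 had reached 75% of their rise, and by P4, 144 had. The earliest named ones included Rit2, a neuronal GTPase (93.3% at P2), and the endothelin receptor Ednrb (89.4% at P2).

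At the other end, 10 of the 281 had under 25% of their rise at P4, so that most of it fell between P4 and P6. These were Mog, Apod, Trf, Ermn, Map7, Bace2, Casr, Mal, Glra1 and Cox8b, picked by this share after their values were seen. Mog, a protein of the outer myelin surface, averaged 5.14 ± 0.43 (SD, n = 4) at P4 and 8.02 ± 0.38 (SD, n = 5) at P6. Ermn averaged 3.64 ± 0.15 and 6.66 ± 0.46, and the proteolipid Mal 4.85 ± 0.08 and 6.22 ± 0.41. Cox8b, a subunit of the respiratory chain known from muscle and heart, rose by 2.60 ± 0.33, with 24.3% of this reached by P4. Only 1 of the 157 at least 2-fold lower had under 25% of its fall at P4.

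The 16 called myelin genes had reached different shares of their rise by P4. The share of the rise reached at P4 ran from 2.78% for Mog to 92.3% for Aspa, and was under 25% for 4 (Mog, Trf, Ermn and Mal), at least 50% for 8 and between these for the other 4. Mobp had 2.65% at P2, 1.9% at P3 and 27.5% at P4, and Mag 6.84%, 19% and 43.4%. The lipid enzyme Ugt8a (31.3% at P2, 54.2% at P4), Cnp (32.1% and 61.2%) and Mbp (28.5% and 66.1%) were nearer to an even course. Aspa, which breaks down N-acetylaspartate, and the small heat shock protein Cryab, at 84.4% and 72.8% by P2, were the earliest. Whether these shares differ between genes was not tested.

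**Figure D5:**
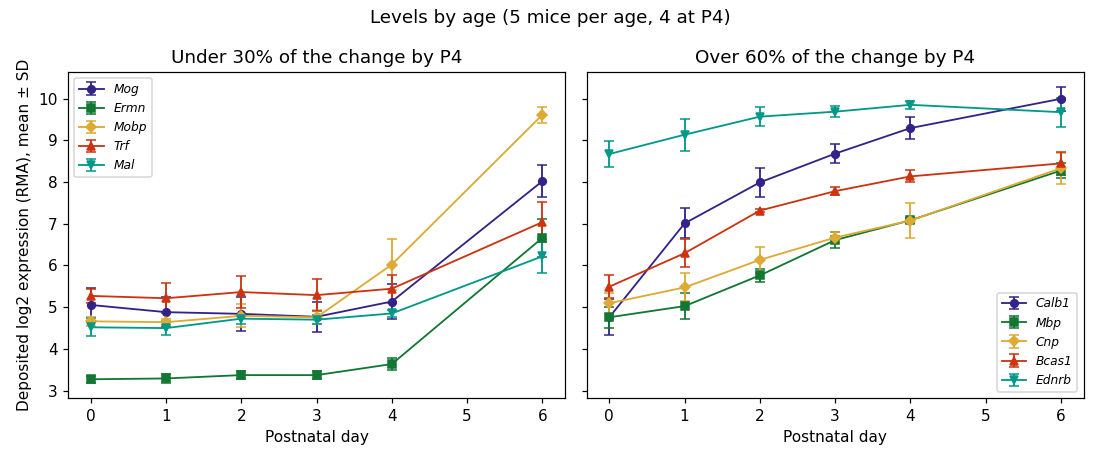
Mean deposited log2 level ± SD (vertical axis) by postnatal day (horizontal axis) for 5 genes with under 30% of their P0 to P6 rise reached at P4 (left) and 5 with over 60% (right), 5 mice per age and 4 at P4. Mog, Ermn and Mal stay near their P0 level until P4 and stand at 8.02, 6.66 and 6.22 at P6, while Mbp had 66.1% of its rise at P4 and Cnp 61.2%. Levels of different genes are not comparable.

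Small changes could be bounded for many genes. The 95% interval of the change lay within 0.5 log2 of 0 for 9750 of 16686 probe sets (58.4%). The share was 38.3% among probe sets above the median of all probe set means and 78.5% among those below it. Changes of dim probe sets are compressed on arrays, so a narrow interval there says little of the transcript. Among lists, 24 of 29 proteasome genes, 17 of 23 Notch genes and 16 of 24 apoptosis genes were within these bounds, against 7 of 32 in sphingolipid and fatty acid synthesis.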

How the data were processed

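The authors deposited 1 table of log2 expression values, 16686 probe sets by 33 arrays. Partek 6.3, RMA and the build mm9 are named for it, per the submitters' processing notes. Arrays give no depth, and RMA's background step and normalization compress changes of dim probe sets. RNA was amplified before labelling, per the labels' protocols. Platform annotation gave 1 symbol to 14993 probe sets, several to 1019 and none to 674. Of these, 14939 matched a RefSeq gene, and the brightest probe set stands for a gene.

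The model (limma 3.58.1, R 4.3.3) held 7 age means and a litter block over the 33 arrays, with 22 residual degrees of freedom. Its two-sided p-values were adjusted by Benjamini and Hochberg's method over the whole table, and 0.05 was the threshold. SE is the moderated standard error. A slope over P1 to P4 was fitted to 19 arrays in the same way. Pairs were tested by exact permutation. The model was tested on simulated data for the P6 against P0 comparison (16686 probe sets). It called 91% of the probe sets shifted by 1 log2, 40% of those shifted by 0.5 log2 and 3 that were not shifted. The simulated noise was normal, independent and of equal spread on every array, with no litter effect. It therefore does not show how many false calls arrays of low weight or litter effects would give.

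Alternatives were the fit without the block, the 10 arrays alone, other normalizations, array weights, a filter on dim probe sets and leaving out each mouse. P-values measure the spread between single mice. The comparison, the gene lists, the pairs and the rules were chosen with earlier results of these data known. Genes named are the 12 highest and 12 lowest called changes among genes with 1 symbol whose ages do not overlap, leaving out predicted genes, the 6 in each direction of smallest p not yet named, up to 4 called members of each list with the largest changes, all pairs, and the 5 steepest slopes by p in each direction. Genes chosen after their values were seen are the tissue markers Slc6a5, En1, Kcnc1, Chat and Slc6a4, the S100 genes beyond the first pair, the earliest and latest risers, and the myelin genes described by their course. Promoters came from RefSeq on GRCm38.p6, the first listed for a gene. The calls of 1 further gene list are not reported here.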

Additional observations from a re-analysis of the deposited data

Results flagged for a closer look

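In 22 of 422 groups of 5 mice tested over the named genes, 1 mouse lay far from the other 4 of its age. Chance flags about 1 in 20 groups. Of these values 12 belong to the P6 mouse of litter 4, the array with the lowest median of the series, and 4 to the P0 mouse of litter 3, the array with the highest median.

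The P6 mouse of litter 4 was the lowest of its age for Dcx (7.45), Apoe (10.74), Sox6 (6.42), Cntfr (6.622), Msi2 (8.872), Sox10 (5.228), Csnk1e (6.534), Tppp (6.811), Atp6v1b2 (8.877), Kctd8 (6.163) and Ezh2 (7.724), and the highest for Ntsr2 (6.471). The P6 mouse of litter 1 was the highest for Ermn (7.465) and the lowest for Rhpn2 (3.841). The P0 mouse of litter 3 was the highest for Bhlhe40 (5.015), Tuba4a (8.598), Atp1b2 (8.991) and Sod3 (4.684). The other P0 mice stood apart once each, litter 2 low for Dnmt3b (4.644), litter 1 low for Dio2 (3.861), litter 5 low for Apaf1 (5.892) and litter 4 high for Ptbp1 (5.623). Leaving out the mouse concerned ended the call of Cntfr (adjusted p = 0.0683 in limma without the P6 mouse of litter 4), and Ezh2 and Ptbp1 were not called with all mice.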

How the results depend on the processing

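The counts of probe sets higher and lower fell to 728 and 731 in a fit of the 10 arrays alone with the litter block and to 771 and 859 in that fit without it. Without the 3 arrays of lowest weight, an alternative chosen after the data were seen, 712 were lower and 422 at least 2-fold higher. With dim probe sets removed, 3130 were bounded within 0.5 log2, of fewer tested. The falling slopes numbered 227 without the replicate block and 972 with array quality weights. Leaving out 1 mouse at a time gave 1034 to 1335 higher, 1161 to 1754 lower, 248 to 325 at least 2-fold higher, 129 to 195 at least 2-fold lower, 277 to 415 rising and 289 to 1000 falling slopes. Without the replicate block 1072 were higher and 1327 lower. Deviations of same-numbered P0 and P6 mice correlated at 0.0123, 0.159, 0.132, 0.13 and -0.207 for litters 1 to 5, so the numbers are not shown to pair the samples. A litter effect was called for 1145 probe sets over all ages. Of the 192 named genes called, 138 were called under every alternative that tested their probe set, and 0 changed sign. Named genes removed by the filter on dim probe sets were not tested in that alternative. The call was lost by 44 in the fit of 10 arrays with the block, 27 without the 3 arrays of lowest weight and 10 without the replicate block.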
